A study of Mus musculus with 2 samples.

Results

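Chemokines that draw T cells into tissue, and the receptors that answer them, were followed through single cells of a mouse glioma treated with vehicle or with Xevinapant. The 7 genes were Cxcl9, Cxcl10, Cxcl16 and Ccl5 (ligands) and Cxcr3, Cxcr6 and Ccr7 (receptors), taken by symbol from 19059 genes measured. They were chosen by inspection of earlier results of these same data, so their levels across cell types are given as a description, without a test. All 7 had UMIs (unique molecular identifiers, 1 per captured RNA molecule). Tumors grew in the brains of C57BL/6J mice from mGSC, a mouse glioblastoma stem cell line heterozygous for Trp53 and Nf1 that was shared by both groups. The mice were given vehicle or Xevinapant, an oral antagonist of the inhibitor of apoptosis proteins (a SMAC mimetic), daily for a week, and cells were profiled with a fixed-cell, probe-based droplet assay. A single tumor line limits the model. The paper states 4 tumors per group, but the labels tie no count matrix to a mouse. Whether the matrices joined into 1 sample below come from 1 tumor is not known.

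CXCL9 and CXCL10 are induced by interferons and bind CXCR3, a receptor of activated T cells and NK cells. CXCL16 is made as a membrane-bound protein that proteases such as ADAM10 shed, and it binds CXCR6, which marks tissue-resident and effector T cells. CCL5 is released by cytotoxic lymphocytes as well as by infected or stressed cells, and CCR7 guides naive T cells, B cells and mature dendritic cells to the ligands CCL19 and CCL21.

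The 8 matrices held 56943 barcodes with a median of 7452 to 14027 UMIs per matrix, and 50962 cells were kept. Matrices of a group that resembled each other far more than they did any other matrix were joined, which left 3 vehicle samples (Vehicle 1 and 3, Vehicle 2, Vehicle 4) and 2 Xevinapant samples (Xevinapant 1 and 2, Xevinapant 3 and 4). The library pool and batch date in the labels coincide with treatment, and so does the labelled molecule, total RNA for vehicle and polyA RNA for Xevinapant. These cannot be told apart from the drug. The names of the Xevinapant matrices carry the word vehicle, and the labels were followed, so every difference between the groups rests on the sample label. In cell makeup Xevinapant 3 and 4 stood nearer to Vehicle 1 and 3 (chi-square per degree of freedom 5.86 to 7.81) than to Xevinapant 1 and 2 (38.01 to 39.95). Same-numbered vehicle and Xevinapant matrices shared 178 to 528 full barcodes, whereas matrices of 1 group shared 0, and 839 kept cells carried such a barcode. Cells were gated by UMIs of fixed marker genes that include none of the 7. The gate gave 34863 tumor cells (normal glia cannot be told apart from them), 913 microglia, 1598 macrophages and monocytes, 333 neutrophils, 92 dendritic cells, 138 T cells, 40 NK cells, 43 B cells, 243 endothelial cells, 689 fibroblasts and 14 mural cells. A further 3378 barcodes carried both tumor and leukocyte markers, called mixed here, and 8618 were not gated. In tumor cells 10 of 12 markers, and in microglia 4 of 5, were higher than over all other kept cells, and in the other 8 classes checked all were. Many of these markers also set the gates, so these counts are no independent check of the gates. Mural cells were not checked. P-values measure only the spread between these samples.

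Cxcl9 and Cxcl10 lie next to each other on chromosome 5 of GRCm38, at 92321347 to 92328079 and 92346638 to 92348889, both on the minus strand and 18558 bases apart. Cxcl16 (70453983 to 70459984), Ccl5 (83525778 to 83530518) and Ccr7 (99144196 to 99155077) lie on chromosome 11, all on the minus strand. Cxcr6 lies on chromosome 9 at 123806475 to 123811760 and Cxcr3 on chromosome X at 101731535 to 101734269. The promoters of the neighbouring pair are shown because both genes are known interferon targets, while their cell sources in this tumor differed. RefSeq promoter windows of 300 bases (GRCm38.p6, minus strand, printed 5′ to 3′) were searched on both strands for the interferon-stimulated response element (GAAA and again GAAA with any 2 bases between), the gamma-activated site (TTC and GAA with any 3 bases between) and the NF-kB motif (GGGA and CC with any 4 bases between). Capitals mark the matches. The Cxcl10 window is chr5:92348840-92349139 and the Cxcl9 window chr5:92328030-92328329.
Cxcl10 promoter: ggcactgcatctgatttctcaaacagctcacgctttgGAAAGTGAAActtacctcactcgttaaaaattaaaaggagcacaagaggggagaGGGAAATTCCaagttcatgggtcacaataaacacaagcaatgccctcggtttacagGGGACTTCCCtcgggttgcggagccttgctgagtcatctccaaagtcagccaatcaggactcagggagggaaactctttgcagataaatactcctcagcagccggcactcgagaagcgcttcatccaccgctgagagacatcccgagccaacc
Cxcl9 promoter: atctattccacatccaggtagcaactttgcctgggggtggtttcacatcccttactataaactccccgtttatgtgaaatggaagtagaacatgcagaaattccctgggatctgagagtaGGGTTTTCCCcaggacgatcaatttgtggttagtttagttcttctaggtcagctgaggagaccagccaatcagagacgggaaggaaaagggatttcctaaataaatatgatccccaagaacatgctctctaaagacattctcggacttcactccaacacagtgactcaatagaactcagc
The Cxcl10 window held a response element match starting at -213 from the start site and NF-kB matches at -159 and -103. The Cxcl9 window held an NF-kB match at -130, read on the opposite strand, and no match to the other motifs. No match overlapped another. Of 32851 promoter windows, 3.44% held the response element, 8.30% the gamma-activated site and 20.7% the NF-kB motif. A match is a description of letters, not a site.

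Most Cxcl10 was in tumor cells, in every sample. Of 121443 Cxcl10 UMIs, 75.7% were in tumor cells, close to their 76.8% of all UMIs (68.4% of kept cells), and the tumor share ran from 66.3% to 82.5% over the 5 samples. In CPM (UMIs of a gene per 1000000 UMIs in the summed cells of a sample), tumor-cell Cxcl10 stood at 122, 47.4 and 166 in Vehicle 1 and 3, Vehicle 2 and Vehicle 4, and at 82.5 and 211 in Xevinapant 1 and 2 and Xevinapant 3 and 4. Microglia, the resident macrophages of brain, held 726, 124 and 297 CPM with vehicle and 125 and 171 with Xevinapant. Macrophages and monocytes held 203, 42.0 and 650 against 38.9 and 128. These 3 classes and fibroblasts (with mural cells, 148, 76.6 and 51.6 against 12.6 and 70.0) overlapped across samples. Within every sample microglia stood above fibroblasts and mural cells. The order within any other pair of these classes changed between samples. Endothelial cells ran from 17.3 to 102 CPM. T cells stood at 34.8% of the tumor cells' Cxcl10 level with vehicle and 95.6% with Xevinapant, and 40 of their 47 Cxcl10 UMIs over all samples came from Xevinapant 3 and 4. Their tumor markers stood at 7.47% and 7.54% of the tumor level. The part of RNA carried over from tumor cells in these values was not tested.

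Cxcl9, although its neighbour, was found elsewhere. Only 1525 UMIs were counted in all, of which mixed barcodes held 32.6%, fibroblasts and mural cells 16.5%, macrophages and monocytes 14.0%, tumor cells 12.1%, microglia 8.13% and endothelial cells 8.07%. Endothelial cells were 0.477% of kept cells. In tumor cells Cxcl9 stayed between 0.0562 and 0.495 CPM in all 5 samples. Endothelial cells gave 24.1, 11.96 and 40.9 CPM with vehicle and 121 and 147 with Xevinapant. Fibroblasts and mural cells gave 9.61, 5.89 and 22.0 against 29.6 and 92.2. Microglia went the other way in CPM, with 26.1, 29.5 and 25.3 against 4.93 and 10.9, but not in the share of cells with a UMI. Without shared barcodes, dendritic cells gave 58.3 CPM in Vehicle 1 and 3 and 70.2 in Vehicle 4, from 3 and 6 UMIs. These stood above the endothelial cells with vehicle. With Xevinapant the dendritic values were 0 and 130.9 CPM, from 0 and 32 UMIs. Neutrophils, NK cells and B cells held no Cxcl9 UMI, and T cells held 1.

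Cxcl16 was a transcript of the mononuclear phagocytes. Microglia held 43.2% and macrophages and monocytes 32.7% of 22042 UMIs, while making up 1.79% and 3.14% of kept cells. Microglia stood at 1281, 1003 and 1335 CPM with vehicle and 1180 and 1337 with Xevinapant. Macrophages and monocytes gave 747, 855 and 870 against 345 and 633. Every microglia sample stood above every macrophage sample. Dendritic cells gave 641 and 632 in the 2 vehicle samples that held at least 10 of them, and 329 and 475 with Xevinapant, which overlapped the macrophages. Tumor cells lay between 1.02 and 2.30 CPM.

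Ccl5 was high per cell in lymphocytes, while tumor cells held the largest share of its UMIs. In samples with at least 10 cells of the class, T cells stood at 3058 and 2154 CPM with vehicle and 3313 and 2711 with Xevinapant, and NK cells at 3393 and 5346 with Xevinapant. Ccl5 UMIs were found in 40 of 40 NK cells (exact 95% interval 91.2% to 100%) and in 74 of 138 T cells. Tumor cells stood at 5.61, 2.44 and 9.10 CPM with vehicle and 10.4 and 16.8 with Xevinapant, and 4.24% of them had a Ccl5 UMI. By their number they held 47.2% of 13454 Ccl5 UMIs, against 7.48% in T cells and 4.90% in NK cells. Microglia (29.5 to 122 CPM) and macrophages and monocytes (17.5 to 486 CPM) lay between tumor cells and lymphocytes and overlapped each other.

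**Figure D1:**
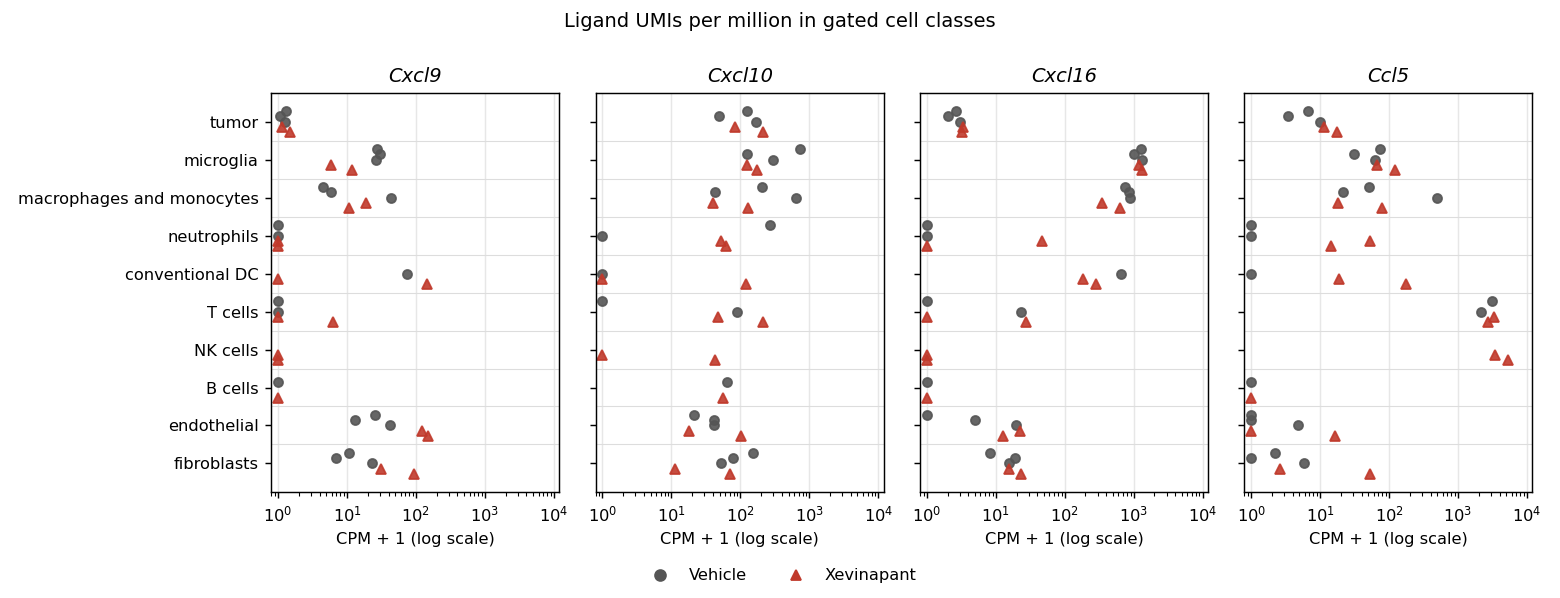
Levels of Cxcl9, Cxcl10, Cxcl16 and Ccl5 (CPM + 1 of summed counts, log axis) in 10 gated cell classes, with 1 point per sample of at least 10 cells of the class (circles vehicle, triangles Xevinapant). Cxcl16 is highest in microglia (1003 to 1337 CPM), Ccl5 in T and NK cells, and Cxcl9 in endothelial cells is at 121 and 147 CPM with Xevinapant against 11.96 to 40.9 with vehicle.

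Within tumor cells Cxcl10 was concentrated in few cells. No Cxcl10 UMI was found in 61.0% to 81.5% of tumor cells per sample. The 2767 cells with at least 5 Cxcl10 UMIs, 7.94% of tumor cells, held 86.6% of the tumor Cxcl10 UMIs (69.8% to 89.7% per sample). The top 1%, 349 cells, held 49.4%, and the highest cell had 953. Ccl5 lay in the same minority: those 7.94% of tumor cells held 65.3% of tumor Ccl5 UMIs (4145 of 6351), and 62.8% to 67.8% in each sample. Of 1479 tumor cells with a Ccl5 UMI, 788 also had a Cxcl10 UMI, which is 53.3% of the Ccl5 cells and 7.63% of the 10333 Cxcl10 cells.

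Cycling tumor cells were gated by S phase or G2/M marker UMIs, and 9793 fell in S phase and 7934 outside the cycle. In S phase Cxcl10 stood at 115, 65.2 and 227 CPM with vehicle and 150.5 and 244 with Xevinapant, against 115, 44.3 and 156 and 45.4 and 139 outside the cycle. It was higher in S phase in 4 of 5 samples and level in Vehicle 1 and 3. S phase was not the highest gate in every sample, since the cells between the gates stood at 200.7 CPM in Vehicle 1 and 3 and G2/M cells at 244 CPM in Xevinapant 3 and 4. With the sample as a block, Cxcl10 rose in S phase by 0.79 on the log2 scale (SE 0.18, adjusted p = 0.00344, edgeR quasi-likelihood test with Benjamini-Hochberg adjustment). Without shared barcodes the difference was 0.80 (adjusted p = 0.00387), and with each sample left out in turn 0.57 to 0.98 (adjusted p = 0.00111 to 0.0158). Cxcl10 was the 1 called of 3 members tested, against a background of 72.7% of 13467 genes called in this comparison (4765 higher and 5025 lower), so a call here sets Cxcl10 apart from few genes. Cxcl16 (-0.15, SE 0.17, adjusted p = 0.461) and Ccl5 (0.43, SE 0.58, adjusted p = 0.524) did not pass. S-phase cells were also deeper, with a median of 14964 UMIs against 11949.5. Thinned to 1000 UMIs per cell, the share of cells with a Cxcl10 UMI was 6.81%, 4.46% and 11.2% in S phase and 3.17%, 2.93% and 6.45% outside the cycle with vehicle, and 7.86% and 12.4% against 2.87% and 5.71% with Xevinapant. All 5 samples had the higher share of cells with a UMI in S phase at this depth. The share of cells with at least 5 Cxcl10 UMIs, thinned to 5000, was higher in S phase in 4 of 5 samples, from 2.66% against 2.40% in Vehicle 1 and 3 to 5.66% against 3.02% in Xevinapant 3 and 4. Vehicle 2 went the other way, with 0.883% in S phase against 1.43% outside the cycle. The unthinned share of cells with at least 1 Cxcl10 UMI averaged 35.2% in S phase and 15.0% outside the cycle with vehicle. With Xevinapant it averaged 37.3% and 20.3%.

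The other lists in the same S-phase fit are read beside 4765 genes higher and 5025 lower of all 13467 tested. Of the NF-kB list, 8 of 13 genes were higher and 3 lower, led by the non-canonical subunits Nfkb2 and Relb (both 0.71) and the IAP gene Birc3 (0.63). Of 16 interferon genes 3 were higher and 9 lower, with the largest falls in Ifnb1 (-2.52), Stat2 (-0.72) and Irf7 (-0.65). Of 7 other chemokines 3 were lower and none higher, among them the CCR7 ligands Ccl19 (-2.36, SE 0.29, adjusted p = 5.57e-05) and Ccl21a (-1.62), and Cx3cl1 (-1.10). Of 7 other receptors, the lymphocyte egress receptor S1pr1 (-2.67) and Cxcr4 (-0.63) were lower and the integrin gene Itga4 (0.84) higher. Of 2 processing genes the sheddase gene Adam10 was higher by 0.12. With 7 genes tested each, the chemokine and receptor lists are too small to be set apart from all genes.

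Xevinapant did not move a member in tumor cells past the test. No gene was called (0% of 14344 by edgeR, with 1654 at an unadjusted p under 0.05 and 281 called by DESeq2). Among the 4 members tested, Ccl5 differed by 1.19 (SE 0.51, adjusted p = 0.434), Cxcl9 by 0.57 (SE 0.76, adjusted p = 0.780), Cxcl16 by 0.50 (SE 0.37, adjusted p = 0.602) and Cxcl10 by 0.34 (SE 0.54, adjusted p = 0.817). The Ccl5 values of the 2 groups did not overlap, whereas those of Cxcl10 did. The share of all genes without overlap is not given for the separate cell classes. Non-overlap within a class is therefore no result about a member, here and below. Within S-phase tumor cells 0% of 13148 genes were called (970 at an unadjusted p under 0.05, 49 by DESeq2). There Ccl5 stood at 2.36, 3.80 and 15.1 CPM with vehicle and 17.3 and 17.6 with Xevinapant (log2 difference 1.24, SE 0.69, adjusted p = 0.684). Cxcl10 differed by 0.50 (SE 0.46, adjusted p = 0.782) and Cxcl16 by 0.79 (SE 0.44, adjusted p = 0.686). DESeq2 called none of the members in either comparison.

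**Figure D2:**
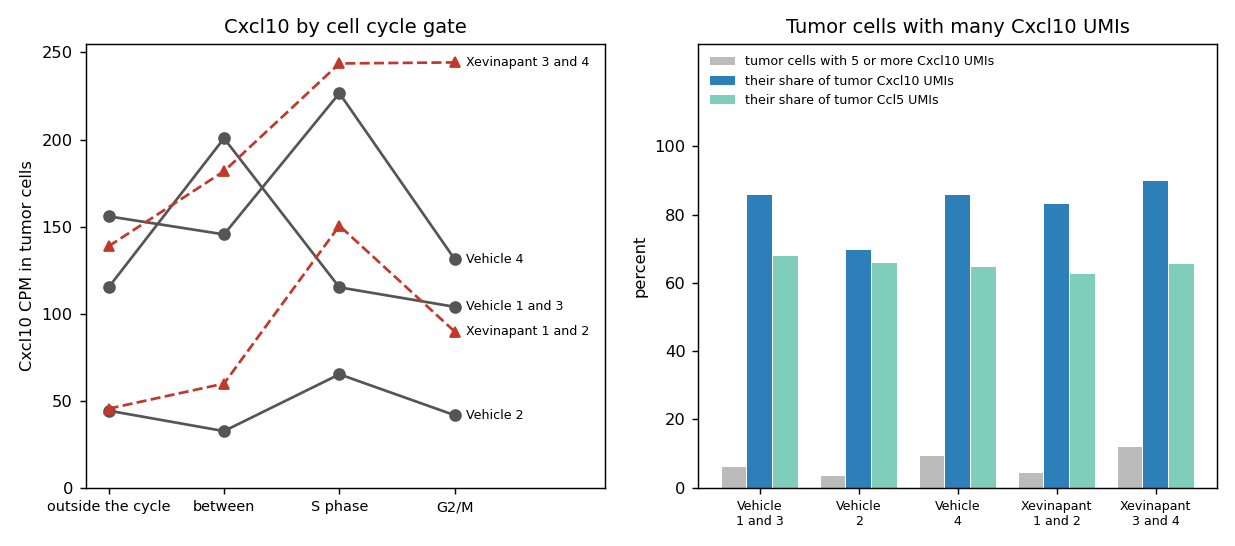
Left, Cxcl10 in tumor cells by cycle gate, where between covers cells under the S and G2/M thresholds that were not outside the cycle either (CPM of summed counts, 1 line per sample); right, per sample, the percent of tumor cells with at least 5 Cxcl10 UMIs and the percent of tumor Cxcl10 and Ccl5 UMIs those cells held. S-phase values exceed those outside the cycle in 4 of 5 samples, and the minority cells hold 69.8% to 89.7% of Cxcl10 and 62.8% to 67.8% of Ccl5 UMIs.

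Tumor cells with at least 5 Cxcl10 UMIs were set beside tumor cells with none, in a window of total UMIs common to both (88 to 557 and 1430 to 2274 cells per sample, medians 20881 to 27937 and 18066 to 25340 UMIs). The cells were chosen on Cxcl10 after the values were seen, so this is a description with no test. Over 9987 genes of at least 20 CPM, 21.4% were higher in all 5 samples and 24.1% lower. Of the interferon list 12 of 14 genes were higher in all 5 samples and 1 lower, with Irf7 higher by 2.11 (SD 0.42, n = 5) and Irf1 by 1.34 (SD 0.32) on the log2(CPM + 1) scale. Of the NF-kB list 11 of 12 were higher, with Birc3 at 1.60 (SD 0.19), Nfkb2 at 1.16 (SD 0.14) and Relb at 0.99 (SD 0.12). Ccl5 was higher by 4.39 (SD 0.85, range 3.02 to 5.36). Outside the lists, the monocyte chemokine gene Ccl2 (4.16, SD 0.66) and the interferon-stimulated genes Gbp2 (3.37, SD 0.34), Rsad2 (3.24, SD 0.40) and Isg15 (2.76, SD 0.58) were named after their values were seen. Cxcl16 did not share the pattern (0.02, SD 0.21) and Cxcl9 varied too much to place (0.99, SD 1.14). All 24 S-phase markers were higher, from 0.25 (SD 0.14) for the replicative helicase gene Mcm5 to 0.66 (SD 0.25) for the licensing gene Cdc6, while of 19 G2/M markers none was higher and 7 were lower. Of 12 tumor markers none was higher in all 5 samples and 8 were lower.

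**Figure D3:**
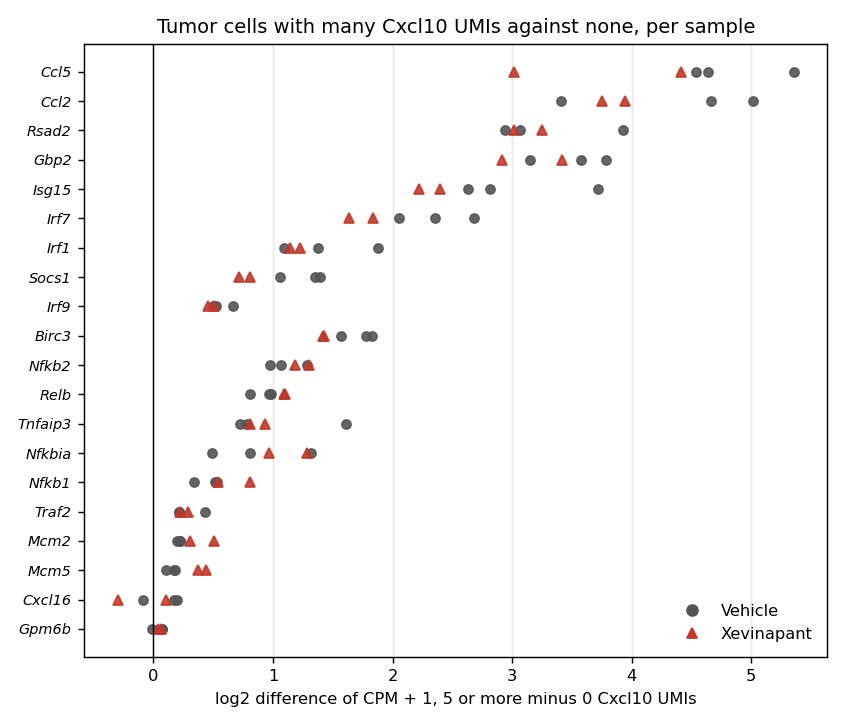
Difference in log2(CPM + 1) between tumor cells with at least 5 Cxcl10 UMIs and tumor cells with none, for 20 genes, with 1 point per sample. Ccl5, Ccl2, Gbp2 and Rsad2 lie above 3 on average, Birc3, Nfkb2 and Relb between 0.99 and 1.60, and Cxcl16 at 0.02.

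Endothelial cells, the lining that T cells cross to enter tissue, held Cxcl9 at a higher CPM with Xevinapant. The counts were 6, 3 and 11 UMIs in 32, 31 and 48 vehicle cells and 28 and 75 UMIs in 50 and 82 Xevinapant cells. Cells with a Cxcl9 UMI numbered 4, 3 and 5 with vehicle and 5 and 15 with Xevinapant, so the shares of cells with a UMI overlapped. In CPM the groups did not overlap, as given above, which without the share over all genes is no result about Cxcl9. The log2 difference was 2.39 (SE 0.39, adjusted p = 0.0321, edgeR quasi-likelihood test), the 1 called of 2 members tested against 0.51% of 6861 genes called. Cxcl9 passed the low-count filter through the Xevinapant samples, so the count of members called is no support. Without the filter it was called too (adjusted p = 1.35e-07, with 2.37% of all genes called). This refit of the same UMIs is no further support. Cxcl10 in the same cells differed by 0.997 (SE 0.56, adjusted p = 0.458), with 20.1, 39.9 and 40.9 CPM against 17.3 and 102. Tumor markers in these endothelial cells stood at 35.6% of the tumor level with vehicle and 16.7% with Xevinapant, and macrophage C1q markers at 16.9 against 60.6 CPM. Their part in the difference was not tested. The call was kept without shared barcodes (adjusted p = 0.0327). It was lost when cells were thinned to equal totals (adjusted p = 0.0523) and in 4 of the 5 fits that left out a sample (adjusted p = 0.0472 to 0.118). In fibroblasts and mural cells Cxcl9 differed in the same direction by 2.14 (SE 0.55, adjusted p = 0.239), short of the threshold, with 0% of 10846 genes called (1273 at an unadjusted p under 0.05, 73 by DESeq2, none of them a member). Cxcl10 there differed by -1.15 (SE 0.63, adjusted p = 0.534) and Cxcl16 by 0.69 (SE 0.44, adjusted p = 0.585).

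In microglia no member differed past the test over all genes. Cxcl9 differed by -1.63 (SE 0.36, adjusted p = 0.284) and Cxcl10 by -1.36 (SE 0.50, adjusted p = 0.540). The Cxcl9 UMIs came from 4, 2 and 9 of 133, 70 and 255 vehicle cells. With Xevinapant they came from 6 and 13 of 147 and 308 cells. The share of cells with a Cxcl9 UMI was therefore not lower with Xevinapant, unlike the CPM. In CPM the 2 groups did not overlap for Cxcl9 and did for Cxcl10, which is no result about a member. Ccl5 differed by 0.73 (SE 0.29, adjusted p = 0.564) and Cxcl16 by 0.09 (SE 0.17, adjusted p = 0.929). Background calls were 0.0193% of 10360 genes, and none of the 4 members tested was called by edgeR or DESeq2 with the low-count filter.

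Macrophages and monocytes numbered 518 with vehicle and 1080 with Xevinapant. All 5 members tested fell short of the threshold, against 0% of 10826 genes called (1600 at an unadjusted p under 0.05, 151 by DESeq2). Cxcl16, at 747 to 870 CPM with vehicle against 345 and 633, differed by -0.72 (SE 0.25, adjusted p = 0.261). Cxcl10 differed by -1.84 (SE 0.93, adjusted p = 0.404), Ccl5 by -2.02 (SE 1.16, adjusted p = 0.463), Cxcl9 by -0.24 (SE 0.85, adjusted p = 0.927) and Cxcr3 by 0.52 (SE 0.52, adjusted p = 0.676). Vehicle 4 held the highest macrophage values of Cxcl9, Cxcl10 and Ccl5 (42.9, 650 and 486 CPM), and without that sample the Ccl5 difference was 0.27.

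Among members that passed the low-count filter, dendritic cells gave the widest difference, resting on few cells. Pooled over all samples, Vehicle 2 included, Ccl5 had 1 UMI among 142089 with vehicle and 247 among 434927 with Xevinapant, a ratio of 80.7. The exact counting interval of 14.35 to 3200 takes each UMI as independent and does not measure the spread between cells or samples. Per sample Ccl5 stood at 19.4 and 0 CPM against 738 and 438 (Vehicle 2 held too few dendritic cells to enter the test). The log2 difference was 6.17 (SE 0.77, adjusted p = 0.0298), the 1 called of 4 members tested against 0.0783% of 3830 genes, and DESeq2 also called it (6.30, adjusted p = 0.00376). Ccl5 passed the low-count filter only through the Xevinapant samples, so the count of members called is no support. Without the filter it was called too (adjusted p = 7.07e-15, with 1.06% of all genes called). That fit uses the same UMIs and is no further support. Those UMIs lay in 10 cells, and the highest cell, with 126, had a barcode shared with the other group. Without shared barcodes Xevinapant 1 and 2 stood at 71.4 CPM, Ccl5 failed the low-count filter and no member was called. T cell markers in the dendritic gate stood at 14.1 CPM with vehicle and 55.2 CPM with Xevinapant, fibroblast markers at 2407 against 71.3 CPM and tumor markers at 992 against 310 CPM. The part of these cells in the difference was not tested. Among 7 mature dendritic cells, the migratory state that leaves for lymph nodes, 5 held 205 Ccl5 UMIs. Of these 7 cells 1 came from vehicle and 6 from Xevinapant. Conventional dendritic cells alone gave 7.03, with 1 vehicle sample, so the spread comes from the Xevinapant samples only. Ccr7 differed by 1.82 (SE 0.80, adjusted p = 0.508) and without shared barcodes by 1.23 (adjusted p = 0.731), where Xevinapant 1 and 2 went from 281 to 65.9 CPM, Cxcl10 by -1.27 (SE 1.24, adjusted p = 0.773) and Cxcl16 by -0.62 (SE 0.33, adjusted p = 0.566). In neutrophils no member passed the low-count filter, and 0% of 2350 genes were called (146 at an unadjusted p under 0.05, none by DESeq2).

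The receptors were read as the share of cells with at least 1 UMI, beside tumor cells as a class that should lack them. In tumor cells (median 13924 UMIs) the shares were 0.0861% for Cxcr3, 0.0602% for Cxcr6 and 0.103% for Ccr7. T cells, at a median of only 1875 UMIs, had a Cxcr3 UMI in 42.0%, a Cxcr6 UMI in 31.9% and a Ccr7 UMI in 13.04% of 138 cells. Cxcr3 in T cells stood at 695, 774 and 489 CPM with vehicle and 354 and 236 with Xevinapant, where Vehicle 2 held only 6 T cells. T cells held 32.4% of 383 Cxcr3 UMIs, macrophages and monocytes 23.5%, microglia 10.7% and NK cells 7.83%. Outside the lymphocytes, 13.04% of dendritic cells (12 of 92), 3.82% of macrophages and monocytes (61 of 1598) and 2.63% of microglia (24 of 913) had a Cxcr3 UMI, at medians of 4834, 5667.5 and 6317 UMIs and above the tumor background.

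Cxcr6 was nearly a T cell gene in this tumor. T cells held 62.9% of 167 UMIs, at 139, 344 and 400 CPM with vehicle and 401 and 273 with Xevinapant, and dendritic cells and B cells held none. A Cxcr6 UMI was found in 0 of 40 NK cells (median 2568.5 UMIs), which allows a share of cells with a UMI of up to 8.81% and does not limit expression below this depth. Ccr7 was spread over several classes. B cells had a UMI in 22 of 43 cells (51.2%, median 1490 UMIs, 415 CPM), T cells held 46 UMIs in 18 of 138 cells (132 CPM) and the 7 mature dendritic cells held 141 UMIs in 6 cells (4232 CPM). Without shared barcodes the mature cells of Xevinapant 1 and 2 held 12 Ccr7 UMIs in place of 53. Dendritic cells together held 33.2% of 428 Ccr7 UMIs, ungated barcodes 22.7%, T cells 10.8% and B cells 8.41%. Ccr7 in T cells stood at 139, 0 and 66.6 CPM with vehicle and 324 and 89.2 with Xevinapant, which overlap. The mature dendritic cells also held 91 Cxcl16 UMIs, in 7 of 7 cells (2731 CPM).

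Among T cells, the pooled shares with a receptor UMI are given for CD8, Foxp3 (regulatory) and other CD4 cells without a test over samples. Of 60 CD8 T cells (median 2045 UMIs), 53.3% had a Cxcr3 UMI (exact interval 40.0% to 66.3%), 30 of 60 a Cxcr6 UMI (36.8% to 63.2%), 23.3% a Ccr7 UMI and 68.3% a Ccl5 UMI. Of 33 Foxp3 T cells at a like depth (median 1997 UMIs), 15.2% had Cxcr3 (5.11% to 31.9%), 12.1% Cxcr6 and 21.2% Ccl5, and 1 cell had Ccr7. Of these Foxp3 cells 22 came from Xevinapant 3 and 4, with Cxcr3 in 1, while Cxcr3 was found in 4 of the 10 with vehicle and in 0 of 1 in Xevinapant 1 and 2, so the pooled Foxp3 share rests on that sample. Of 18 CD4 T cells without Foxp3 (median 1581.5 UMIs), 9 had Cxcr3 (exact interval for the share 26.02% to 73.98%) and 11.1% Cxcr6. NK cells had Cxcr3 in 32.5% (18.6% to 49.1%). Cells of all samples are pooled in these shares, so the intervals cover counting error only. Cxcr3 and Cxcr6 met in 30 T cells, 51.7% of the 58 with Cxcr3 and 68.2% of the 44 with Cxcr6, while Ccr7 met Cxcr3 in 7 and Cxcr6 in 4.

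Per T and NK cell, neither Cxcr3 nor Cxcr6 differed between groups past the test, and Ccr7 failed the low-count filter. Cxcr3 stood at 613, 570 and 338 CPM with vehicle and 313 and 229 with Xevinapant (log2 difference -0.84, SE 0.36, adjusted p = 0.998). Cxcr6 differed by 0.21 (SE 0.42, adjusted p = 0.998) and Ccl5 by -0.08 (SE 0.33, adjusted p = 0.998). No gene was called (0% of 2333, 86 at an unadjusted p under 0.05, none by DESeq2). Vehicle and Xevinapant held 62 and 116 of these cells. Of CD8 T cells with vehicle 10 of 15 had a Cxcr3 UMI (66.7%), and with Xevinapant 22 of 45 (48.9%). NK cells went the other way, with 3 of 17 (17.65%) against 10 of 23 (43.48%), at medians of 1904 and 3733 UMIs. These shares pool cells over samples and were not tested.

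**Figure D4:**
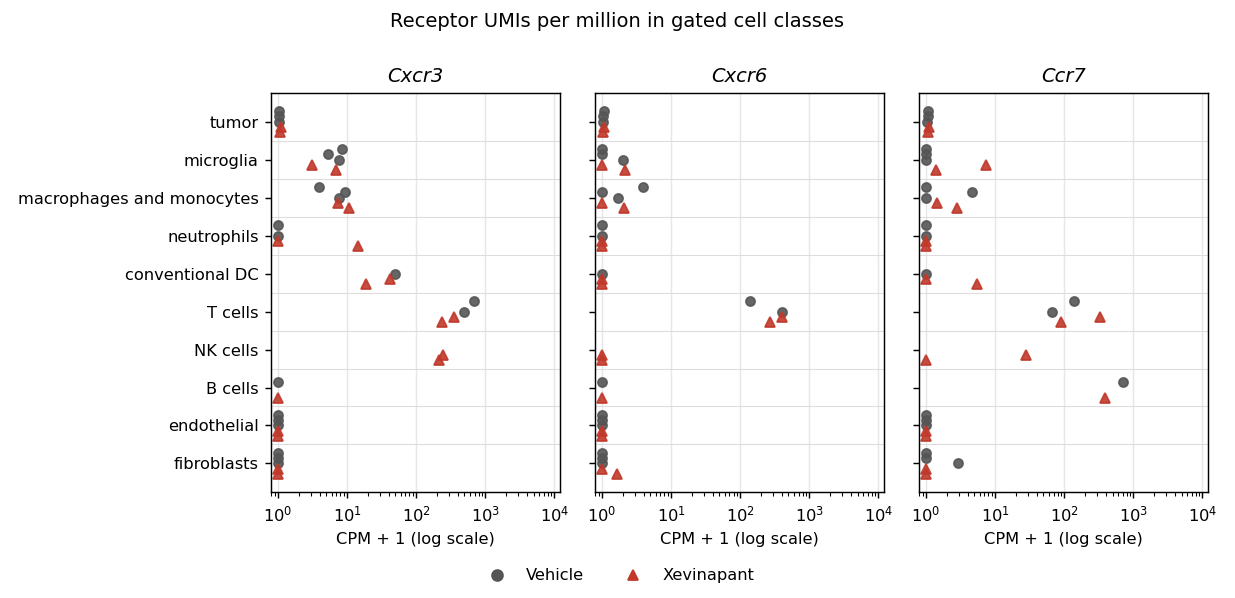
Levels of Cxcr3, Cxcr6 and Ccr7 (CPM + 1 of summed counts, log axis) in 10 gated cell classes, with 1 point per sample of at least 10 cells of the class (circles vehicle, triangles Xevinapant). Cxcr6 stands out in T cells (139 to 401 CPM), Cxcr3 in T and NK cells and Ccr7 in B cells, T cells and dendritic cells.

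Over the whole tumor, all kept cells summed, 3 of the 4 ligands were higher in both Xevinapant samples than in any vehicle sample, as were 26.8% of 17594 genes with at least 10 UMIs. Cxcl9 stood at 0.970 ± 0.458 CPM (SD, n = 3) with vehicle and 2.75 ± 0.0869 CPM (SD, n = 2) with Xevinapant, a ratio of 2.84. Cxcl16 stood at 21.1 ± 5.94 against 35.1 ± 9.28 CPM and Ccl5 at 9.53 ± 5.03 against 22.1 ± 4.00 CPM. Each gave an exact two-sided permutation p of 0.1 (0.1167 adjusted over the 7 values), the smallest that 3 samples against 2 allow. Cxcl10 overlapped, at 117.5 ± 62.9 against 143.5 ± 95.1 CPM (exact permutation p = 0.8, adjusted 0.8). More cells of a type and a higher level within them cannot be told apart in such sums alone. For Cxcl16 the levels within microglia overlapped between groups, as given above. Within macrophages and monocytes they were lower with Xevinapant, a difference that did not pass the test. The part of cell numbers and of levels in the sum was not tested.

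Leukocytes with a receptor UMI made up a larger share of kept cells in both Xevinapant samples for all 3 receptors, but so did leukocytes with a UMI of 86.1% of 13350 genes, so this is no result about the receptors. Those with Cxcr3 were 0.217%, 0.223% and 0.245% of kept cells with vehicle and 0.550% and 0.484% with Xevinapant. Those with Cxcr6 were 0.0800%, 0.0297% and 0.0789% against 0.0935% and 0.196%. Those with Ccr7 were 0.0914%, 0.0892% and 0.0158% against 0.210% and 0.161%. All leukocytes together were 6.15%, 3.57% and 4.65% of kept cells with vehicle and 14.9% and 7.53% with Xevinapant. No group overlapped the other for any of the 3 receptors, and each exact permutation p was 0.1 (adjusted 0.1167). Among leukocytes alone the share with Cxcr3 did overlap, with 3.53%, 6.25% and 5.26% against 3.69% and 6.43%. Thinned to 1000 UMIs per cell, the Cxcr3 share of all kept cells was 0.0757%, 0.0648% and 0.143% with vehicle and 0.171% and 0.227% with Xevinapant (means 0.0945% and 0.199%, exact permutation p = 0.2), without overlap.

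**Figure D5:**
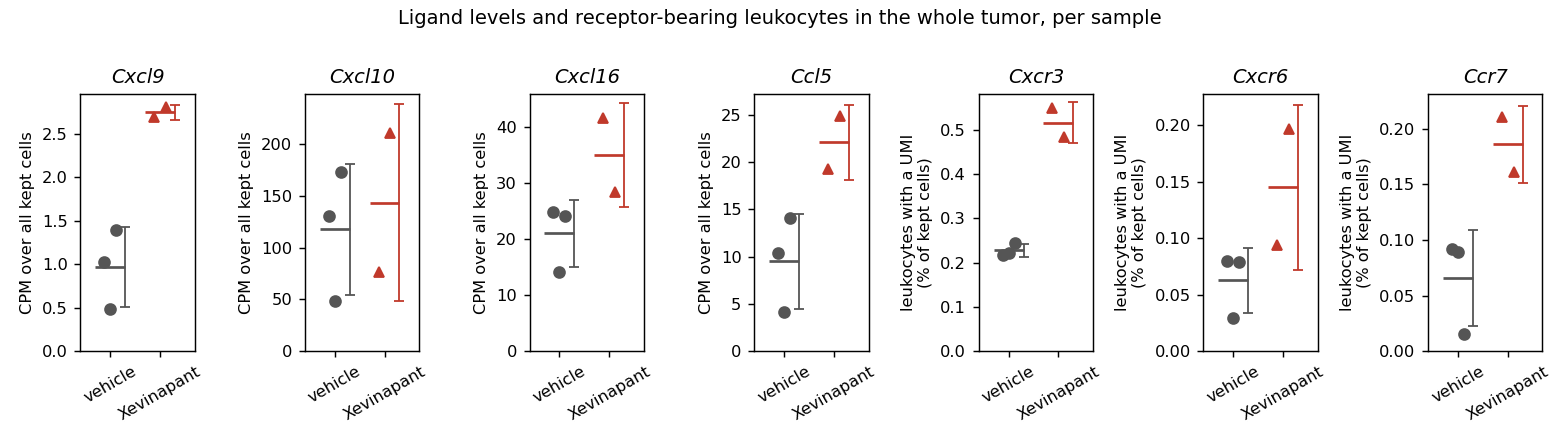
Per sample, the level of each ligand over all kept cells (CPM) and the percent of kept cells that were leukocytes with a UMI of each receptor, with the group mean (line) and SD (bar). Vehicle has 3 and Xevinapant 2 samples, and the groups overlap for Cxcl10 only.

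The genes of the other fixed lists (further chemokines and receptors, interferon and NF-kB genes, CXCL16 processing) gave 0 calls in every comparison of treatment. With 0% to 0.51% of all genes called in these comparisons, so few calls leave no result about the lists.

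Over 10 cell classes (mean log2(CPM + 1) of the samples, 12096 genes), the genes most like each member by Pearson's r were as follows, with no p since classes share libraries. Cxcl16 went with the microglia gene Fcrls (0.988), Hpgd (0.982) and Zmynd15 (0.975). Cxcl9 went with Trim47 (0.948) and the endothelial genes Acvrl1 (0.942) and Nostrin (0.941). Cxcl10 went with the heat shock gene Hspa1b (0.944), Fbxl4 (0.89) and Hgsnat (0.882). Ccl5 went with Cst7, a cystatin of cytotoxic lymphocytes (0.964), Ms4a4b (0.949) and Lpar5 (0.945), and Cxcr3 with Cst7 (0.979), Mppe1 (0.969) and Abracl (0.967). Cxcr6 followed T cells closely, with Themis (1.0), Cd3d (0.999) and Cd3g (0.999), and Ccr7 went with Sit1 (0.971), the immunoglobulin gene Igkc (0.968) and Sidt1 (0.964).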

How the data were processed

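Single cells of orthotopic mGSC tumors from vehicle and Xevinapant mice were profiled in 8 matrices. The authors deposited UMI counts per gene and barcode (unnormalized, mm10), and the matrix headers name Cell Ranger 7.1.0. Barcodes were kept with 200 or more genes, a mitochondrial share up to 10% and a complexity from 0.8 upward, and 3612 doublets called at a rate of 0.8% per 1000 barcodes were removed (scanpy 1.11.5). Matrices of a group whose cell makeup differed by a chi-square under 3 per degree of freedom (1.15 to 2.18, against 8.57 to 39.95 for other pairs) were joined and counted as 1 sample. Cells were gated by marker UMIs with thresholds set after the marker UMIs were seen: tumor cells had at least 4 marker genes, at least 10 of their UMIs and at most 2 of other classes, leukocytes at least 3 marker genes, and phases at least 3 phase UMIs per 1000. Counts were summed per sample and class (at least 10 cells) and tested with edgeR 4.0.16 (quasi-likelihood, TMM, filterByExpr, called at an adjusted p of 0.05 over all genes). DESeq2 1.42.0 was an alternative. Shares and whole-tumor levels were compared by exact permutation over samples. Alternatives were another normalization, no low-count filter, doublets kept, stricter gates, thinning, each matrix as 1 mouse, each sample left out and, chosen after seeing the data, shared barcodes left out, a replicate block on the numbers in the matrix names and conventional dendritic cells alone. The members and gene lists were chosen with earlier results of these data known. All genes named as most like a member are the 3 with the highest correlation among genes of at least 10 CPM in a class. Of each list, at most the 3 largest called differences are named. The authors' test over single cells was not used here. Intervals cover counting error only. Scripts were tested on simulated data. The values of 1 gene of the interferon list are not reported here.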

Additional observations from a re-analysis of the deposited data

Results flagged for a closer look

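The difference of the Xevinapant effect between cell classes was tested with an interaction term in edgeR (112 differences over 21 pairs of classes, of which 37 had an unadjusted p under 0.05; adjusted over all genes of a pair), a comparison added after seeing the data. The share of all genes at that unadjusted level was not computed, and the pairs reuse the same classes. The 37 are therefore no result about the members. The Ccl5 effect in dendritic cells exceeded that in tumor cells by 5.709 on the log2 scale (adjusted p = 2.569e-08), that in microglia by 5.882 (adjusted p = 0.02584) and that in macrophages and monocytes by 9.402 (adjusted p = 5.392e-19), values that repeat the dendritic difference and are no further support for it, all resting on the 10 Xevinapant dendritic cells with a Ccl5 UMI. Of their 247 UMIs 126 lie in 1 cell with a shared barcode, and without shared barcodes Ccl5 was not called in dendritic cells. The difference from macrophages also rests on Vehicle 4 (486 CPM), without which the macrophage Ccl5 effect was 0.27 in place of -2.02. The Cxcl9 effect in endothelial cells exceeded that in microglia by 4.11 (adjusted p = 0.02886), where the microglia difference itself did not pass (-1.63, adjusted p = 0.284) and the endothelial call was lost in 4 of the 5 fits that left out a sample and on thinning. In microglia the share of cells with a Cxcl9 UMI was not lower with Xevinapant, unlike the CPM. The Cxcl10 effect in T and NK cells exceeded that in macrophages and monocytes by 3.351 (adjusted p = 0.002149), with 1, 1 and 4 UMIs in T and NK cells of the vehicle samples and 3 and 43 with Xevinapant. Those UMIs lay in 8 T cells and 3 NK cells, and Cxcl10 failed the low-count filter in T and NK cells alone. The macrophage difference itself did not pass, and Vehicle 4 held the highest macrophage value, as given above. Genes called over each whole pair numbered 13, 6, 19, 3 and 10 in this order, of 13769, 9442, 10044, 9806 and 9976 tested.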

How the results depend on the processing

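The labels number no replicates, while the matrix names run from 1 to 4 in both groups; these numbers cross once alike matrices are joined, so a replicate block could be fitted only with each matrix as 1 mouse, which counts alike matrices separately (added after seeing the data). Same-numbered matrices did not deviate together (r over genes of tumor cells 0.203, -0.0706, -0.226 and 0.153). With this replicate block 1 member was called in endothelial cells (Cxcl9, 2.36, adjusted p = 0.00832, with 1.51% of all genes called) and 1 in fibroblasts and mural cells (Cxcl9, 2.42, adjusted p = 0.0115, with 0.0657%), Cxcl9 in macrophages and monocytes was at 0.3381, and no member was called in the other 6 comparisons fitted; over all genes of tumor cells 64 were called against 742 without the block. Of the alternatives for single genes 364 kept direction and side of the threshold, 19 reversed, 9 became stronger and 9 weaker. Members called without a low-count filter were 2 in microglia (Cxcl9, Cxcl10; 0.367% of all genes called), 3 in macrophages and monocytes (Cxcl10, Cxcl16, Ccl5; 4.93%), 2 in dendritic cells (Ccl5, Ccr7; 1.06%) and 2 in fibroblasts and mural cells (Cxcl9, Ccl5; 3.05%). In dendritic cells 0 were called with doublets kept (Ccl5 adjusted p = 0.117) or without shared barcodes. With conventional dendritic cells alone or a sample left out, 1 sample remained in a group, so only effects are given. Ccl5 differed by 9.68 without Vehicle 1 and 3 and by 4.93 without Vehicle 4. In endothelial cells 0 were called with each matrix as 1 mouse, where neither member passed the filter, and 0 when thinned to equal totals. With a sample left out 0 to 1 were called (1 only without Vehicle 4), and Cxcl9 had an adjusted p of 0.0821 without Vehicle 1 and 3, 0.0547 without Vehicle 2, 0.0644 without Xevinapant 1 and 2 and 0.118 without Xevinapant 3 and 4. In neutrophils 0 to 1 were called (Cxcl10, -2.25, adjusted p = 0.0413 without Vehicle 4, which leaves 1 vehicle sample assumed to vary like the rest), and for S phase against outside the cycle 1 to 2 (Ccl5, 1.16, adjusted p = 0.00661 without Vehicle 1 and 3). With each matrix as 1 mouse the exact permutation p was 0.02857 for differences of 0.2927 percentage points (Cxcr3), 0.07802 (Cxcr6) and 0.1139 (Ccr7) and of 1.712 CPM (Cxcl9) and 13.05 CPM (Cxcl16), and 0.05714 for Ccl5 (12.14 CPM). The whole-tumor Cxcl10 difference ran from -41.22 to 93.24 CPM with a sample left out. Log2 differences that reversed with a sample left out were, in tumor cells, Cxcl9 (-0.7891 to 1.1784) and Cxcl10 (-0.4798 to 0.8468); in microglia, Cxcl16 (-0.0287 to 0.1816); in macrophages and monocytes, Cxcl9 (-0.8327 to 1.8299) and Ccl5 (-3.3131 to 0.2716); in dendritic cells, Cxcl10 (-7.1882 to 6.3775, and 6.3983 with conventional dendritic cells alone). In T and NK cells these were Cxcr6 (-0.0256 to 0.6946) and Ccl5 (-0.3556 to 0.1619, 0.1683 with the stricter gate, 0.0983 without a filter), in endothelial cells Cxcl10 (-0.9047 to 1.596), and for S phase Ccl5 (-0.0561 to 1.1645, -0.3023 with the stricter gate). The cause of these changes was not tested. Over all genes, 281 were called in tumor cells by DESeq2 and 742 with each matrix as 1 mouse, against 0. The stricter gate and each matrix as 1 mouse were not run in dendritic cells, with fewer than 2 samples in a group, and DESeq2 gave no adjusted p for endothelial Cxcl9. Depth limits T, NK, dendritic and endothelial classes, of 40 to 243 cells over all samples.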

Other observations

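Mixed barcodes, with tumor and leukocyte markers together, were 6.63% of kept cells at a median of 31638.5 UMIs. They held 32.6% of Cxcl9, 14.8% of Cxcl10, 17.6% of Ccl5 and 11.3% of Cxcl16 UMIs. Of all 818895813 UMIs they held 122208813. Beside that share of all UMIs, Cxcl10 was level, Ccl5 slightly higher, Cxcl16 lower and only Cxcl9 well above. Ungated barcodes, at a median of 1147 UMIs, held 22.7% of Ccr7 UMIs. Among Foxp3 T cells a Cxcr3 UMI was found in 4 of 10 with vehicle and 1 of 23 with Xevinapant, too few for a comparison over samples. Relative to tumor cells of the same group, Cxcl10 stood at 74.3% with vehicle and 19.2% with Xevinapant in fibroblasts, at 318% and 88.1% in microglia and at 263% and 37.4% in macrophages and monocytes. The tumor markers there stood at 56.9% and 39.01% in fibroblasts, 13.7% and 13.2% in microglia and 12.9% and 6.03% in macrophages and monocytes.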
